A study of Homo sapiens with 4 samples.

Results

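The regions described here are 245 isolated poly(A) regions whose level was higher in libraries 1 and 2 than in libraries 3 and 4. They were chosen from the same read counts that are reported below. A region counted as isolated when no other region of its strand lay within 5000 bases. It had to be wider than 10 bases and to hold 200 to under 2000 reads summed over the 4 libraries. These limits left 2887 eligible regions of 31081 in the table. In 245 of them (8.49%) the mean CPM (counts per 1000000 reads of the library) was at least 1.5 times as high in libraries 1 and 2 as in libraries 3 and 4. The opposite difference was found in 354 eligible regions (12.3%), and 2288 lay between both limits. With TMM scaling, which lowers every ratio nearly alike, the 2 directions counted 189 and 457 regions. Because the ratio of the library pairs chose the regions, it is given as a description without a test.

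Poly(A) site sequencing places reads at the 3' ends of polyadenylated transcripts. A pre-mRNA is cut downstream of a hexamer that is usually AAUAAA or a close variant, and poly(A) polymerase then adds the tail. Many genes have further sites, in the 3' untranslated region or in introns, and use of an intronic site gives a shortened transcript. An oligo(dT) primer can also anneal to A-rich stretches inside a transcript, which then appear as ends. Whether any region described here lies at such a stretch was not tested. An isolated region is one for which no alternative end was listed nearby.

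All 4 libraries came from DICER(ex5) cells, a colon cancer line derived from HCT116 that the labels call a hypomorph for Dicer, the ribonuclease that matures microRNAs. Every library therefore shares the Dicer defect, and the series as used here has no parental line. The labels give 1 line without stating how many clones it represents, an identical growth and extraction protocol for all libraries, and no day or batch. The division into libraries 1 and 2 and libraries 3 and 4 is taken from the counts and is no treatment. What distinguishes the pairs cannot be told from the labels, so a cause of the differences was not tested. The libraries are described as biological quadruplicates, but nothing says that they came from separate cultures, so the spread between them may be technical. The libraries held 5211279, 2163977, 5713530 and 3984278 reads, so that 1 read equals 0.192, 0.462, 0.175 and 0.251 CPM. Positions are on hg19 as deposited. No annotation or genome of that build was used here, so regions are named by position, without a gene or a sequence.

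The 245 regions together held 1.05% of the reads of library 1, 1.18% of library 2, 0.466% of library 3 and 0.492% of library 4. The 2288 regions between the limits held a nearly equal share in every library, from 9.20% to 9.32%. Among the 245, the ratio of the pair means had a median of 1.94, with the middle of the distribution between 1.62 and 3.51 (quartiles). It lay from 1.5 to under 2 in 126 regions, from 2 to under 4 in 69 and at 4 or more in 50. The 119 regions with a ratio of 2 or more were 4.12% of the eligible ones, and 4.68% reached 2 in the opposite direction. Over all 245 the median level was 32.6 CPM in library 1, 37.0 in library 2, 13.3 in library 3 and 14.1 in library 4. Across the 3 classes of ratio the level in libraries 1 and 2 changed little, with a median of 34.9, 34.4 and 41.2 CPM for their mean. The median level in libraries 3 and 4 was 20.5, 11.7 and 5.17 CPM in the same classes. The range of total reads bounds the level in libraries 1 and 2, so these medians are set in part by the rule. A ratio of 4 or more in the opposite direction was found in 32 eligible regions (1.11%), against the 50 (1.73%) here.

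**Figure D1:**
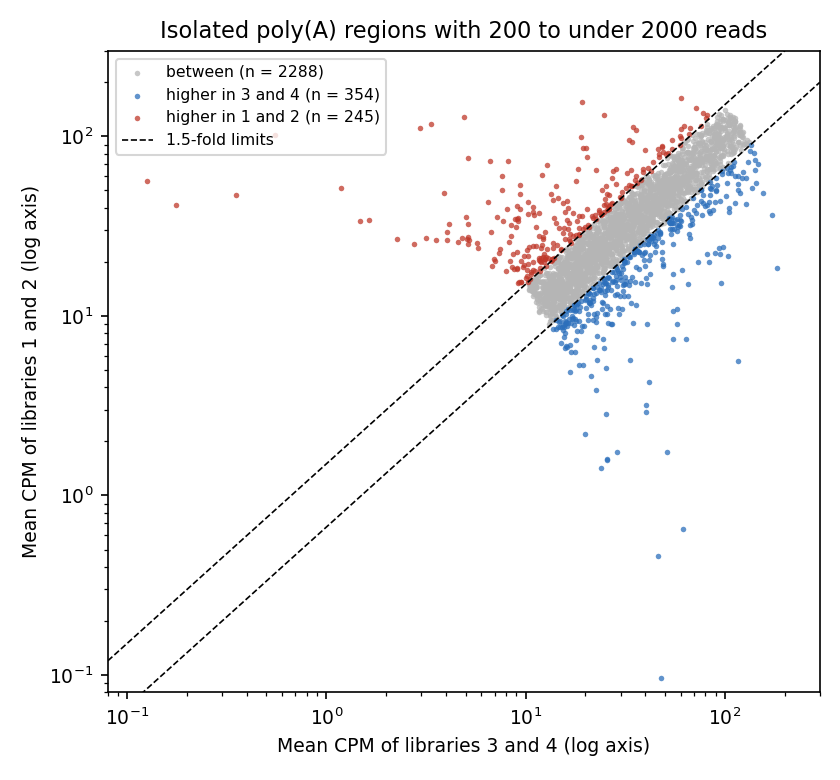
Mean CPM of libraries 1 and 2 against that of libraries 3 and 4 for the 2887 eligible regions, both on log axes. Each point is a region, the dashed lines are the limits of 1.5-fold, and the 245 red points reach further from the line at low levels in libraries 3 and 4.

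Libraries 1 and 2 were both above libraries 3 and 4 in all 245 regions. The same lack of overlap was found in 936 of the 2887 eligible regions (32.4%), and the reverse in 1024 (35.5%). The ratio of the lower of libraries 1 and 2 to the higher of libraries 3 and 4 had a median of 1.67 and reached 2 in 88 of the 245.

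The highest ratio was found at chr13:47317716-47317727 (plus strand). It was 12 bases wide and held 329, 109, 0 and 1 reads in libraries 1 to 4, or 63.1, 50.4, 0 and 0.251 CPM. With 1 read in libraries 3 and 4 its pooled ratio of 576 had an exact 95% counting interval from 103 to 22799. Intervals cover counting error only and leave out the spread between libraries. They take each read as independent, which reads copied by PCR are not, so they may be too narrow. Its ratio of mean CPM was 452, and 226 without library 3. At chr2:194600887-194600898 (plus strand) the reads were 240, 80, 2 and 0. The pooled ratio there was 210, with an interval from 57.8 to 1745, and the ratio of mean CPM was 237, or 119 without library 4. Both regions were close to silent in libraries 3 and 4 while giving 37.0 to 63.1 CPM in libraries 1 and 2.

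The minus-strand region chr20:55934277-55934287 gave 444, 256, 2 and 3 reads, which are 85.2, 118, 0.350 and 0.753 CPM. The ratio there was 184, but 135 without library 3 and 291 without library 4. At chr11:11962700-11962711 (minus strand) the reads were 255, 97, 4 and 0, and the pooled ratio was 116 (interval 44.8 to 427). Its ratio of mean CPM was 134, and 67.0 without library 4. These 4 regions, each 11 or 12 bases wide, were the members of the set with a ratio of 100 or more. The nearest listed regions of the same strand lay 7955 to 215782 bases away from them.

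Next came the minus-strand region chr5:123095972-123095995, 24 bases wide, with 246, 120, 2 and 8 reads. The plus-strand region chr1:97395376-97395386 held 592, 234, 18 and 11 reads, or 114, 108, 3.15 and 2.76 CPM, a ratio of 37.5. At chr17:4184830-4184841 (minus strand) the levels were 102, 131, 2.45 and 4.27 CPM. The ratio at chr5:123095972-123095995 was 43.5, but 25.6 without library 3 and 147 without library 4. At chr17:4184830-4184841 it was 34.8.

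The minus-strand region chr14:31612742-31612766 gave 102, 155, 4.03 and 5.77 CPM, a ratio of 26.2. At chr3:193373585-193373599 (plus strand) the reads were 171, 75, 4 and 9. Its ratio was 22.8, but 14.9 without library 3 and 48.2 without library 4. The tenth region, chr19:8520307-8520324 (plus strand), held 160, 82, 3 and 11 reads, with a ratio of 20.9, which was 12.4 without library 3 and 65.3 without library 4. Of the 10, 7 were 15 bases wide or narrower, and the 3 others were 18, 24 and 25 bases wide. In all 10 the lower of libraries 1 and 2 was at least 11.1 times the higher of libraries 3 and 4.

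**Figure D2:**
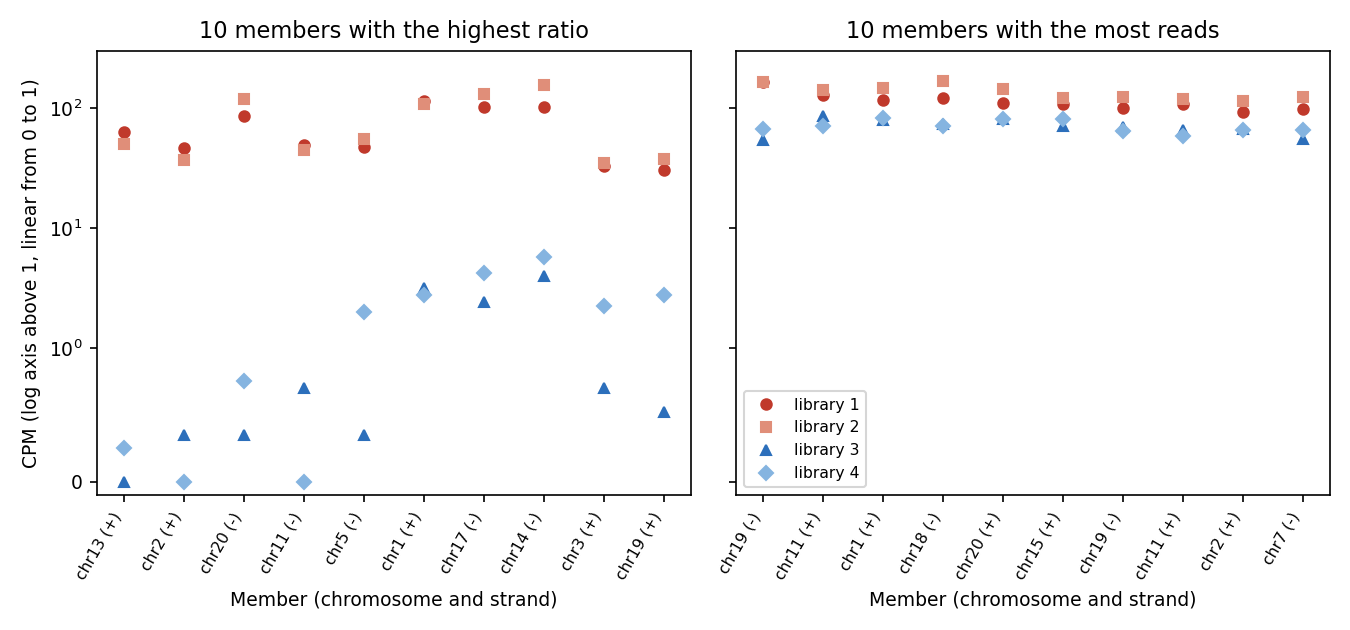
CPM in each library for the 10 regions with the highest ratio (left) and the 10 with the most reads (right), each marked by chromosome and strand. The axis is linear from 0 to 1 CPM and logarithmic above. On the left libraries 3 and 4 lie between 0 and 5.77 CPM, and on the right between 53.7 and 85.9 CPM.

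The regions with the most reads differed by far less. The best read, at chr19:7684406-7684425 (minus strand), held 861, 355, 307 and 268 reads. These are 165, 164, 53.7 and 67.3 CPM, so that libraries 1 and 2 were nearly level and 2.72 times the mean of the others. At chr11:64084193-64084220 (plus strand) the levels were 127, 141, 85.9 and 70.3 CPM, a ratio of 1.72. The minus-strand region chr18:72057219-72057253 gave 121, 168, 73.9 and 70.3 CPM, with library 2 well above library 1. Apart from the first, these best-read regions had ratios of 1.51 to 2.00.

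The other best-read regions lay on chromosomes 1, 2, 7, 11, 15, 19 and 20. At chr1:156770598-156770628 (plus strand) the levels were 117, 146, 79.3 and 83.3 CPM. The plus-strand region chr20:44039230-44039259 gave 110, 144, 80.9 and 80.3 CPM. Library 2 exceeded library 1 in 9 of these 10 regions. At chr7:28318613-28318624 (minus strand) a region of 12 bases gave 98.8, 122, 55.3 and 65.8 CPM. With a ratio of 1.83 it was the lowest of the 12 members that were 11 or 12 bases wide.

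Near the limit the choice turned on small differences. The 5 regions just inside it had ratios of 1.502 to 1.505, and the 5 just outside 1.495 to 1.4995. The last one inside, at chr3:4402814-4402855 (minus strand), gave 66.4, 62.4, 44.8 and 40.9 CPM. The first one outside, at chr16:8889297-8889334 (minus strand), gave 29.6, 32.3, 21.7 and 19.6 CPM. Both showed the same order of the library pairs, and the counting interval of the pooled ratio was 1.32 to 1.73 for the former and 1.20 to 1.77 for the latter. The set is therefore the upper end of a continuous range and has no gap below it.

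The share of members differed with the width of a region, which the rule used only as a minimum. The 245 regions were 11 to 113 bases wide with a median of 29, against 33 in both the regions between the limits and those higher in libraries 3 and 4. Of 26 eligible regions 11 or 12 bases wide, 12 were members (46.2%, 95% Wilson interval 28.8% to 64.5%). At 13 to 15 bases the share was 16 of 91 (17.6%, 11.1% to 26.7%). It was 4.19% (2.90% to 6.03%) at 41 to 60 bases, where the regions higher in libraries 3 and 4 made up 14.3%. Over 60 bases the share of members was again larger, with 18 of 172 (10.5%, 6.72% to 15.9%). Isolated regions of 10 bases or fewer with the same number of reads, which the rule left out, had a ratio of 1.5 or more in 137 of 152 (90.1%). The minimum width thus cuts through a range in which the share of regions with such a ratio declines over a few bases.

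In the 28 members of 15 bases or fewer the median ratio was 3.95, and 14 of them reached 4. No eligible region of this width reached 4 in the opposite direction, and 18 passed 1.5-fold that way. In the members of 16 to 60 bases the median ratio was 1.85 and the highest 43.5. The 18 members wider than 60 bases had a median of 3.23, a highest value of 5.30, and 12 of them reached 2. Across the 245 regions Spearman's rho of width and ratio was -0.15, a description over regions that share the same libraries. Over all 2887 eligible regions it was only -0.04.

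The wide members had reads in every library. The highest ratio among them was at chr5:177023063-177023133 (plus strand), 71 bases wide, with 674, 289, 123 and 112 reads. At chr10:127512198-127512296 (plus strand) 99 bases held 84.4, 88.3, 17.0 and 22.1 CPM, a ratio of 4.42. The minus-strand region chr3:186507645-186507735 gave 24.8, 28.2, 3.33 and 7.03 CPM over 91 bases. Its ratio was 5.11, but 3.77 without library 3 and 7.96 without library 4. That region overlapped a region of 1700 reads on the other strand whose own ratio was 1.65. At chr8:63927621-63927718 (minus strand) the levels were 38.2, 36.5, 11.2 and 12.05 CPM. The widest member, 113 bases at chr15:44096683-44096795 (minus strand), had a ratio of only 1.51, with 87.5, 92.0, 55.7 and 63.0 CPM.

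**Figure D3:**
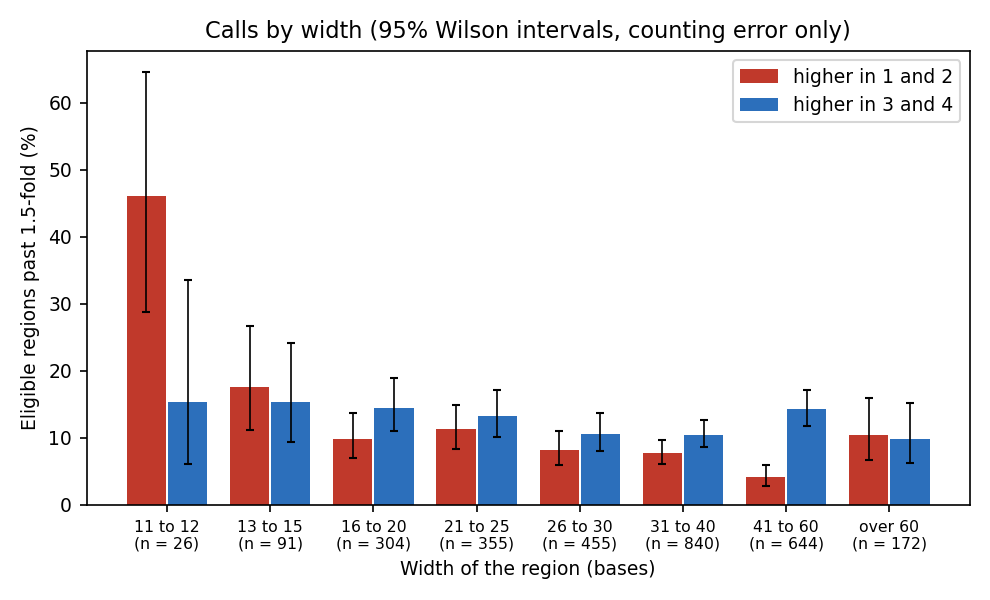
Share of eligible regions that passed 1.5-fold in either direction, by width in bases, with the number of eligible regions under each class. Bars are shares in percent and lines are 95% Wilson intervals, which cover counting error only. The share higher in libraries 1 and 2 goes from 46.2% at 11 or 12 bases to 4.19% at 41 to 60 bases. It is 10.5% over 60 bases, and the other share stays between 9.88% and 15.4%.

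Library 2 was above library 1 in 185 of the 245 regions (75.5%), against 45.3% of the regions between the limits and 14.1% of those higher in libraries 3 and 4. The median log2 ratio of library 2 to library 1 was 0.17 in the 245 regions, -0.03 between the limits and -0.36 in the regions higher in libraries 3 and 4. Library 4 was above library 3 in 154 of the 245 (62.9%), with a median log2 ratio of 0.10. Both libraries of a pair enter the rule, so these orders are not independent of it, and library 2 had the fewest reads. Taken one library at a time, the median ratio was 1.88 and 1.86 for library 1 over libraries 3 and 4, and 2.199 and 2.03 for library 2. Of the 245 regions, 171 kept a ratio of at least 1.5 whichever single library was left out.

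**Figure D4:**
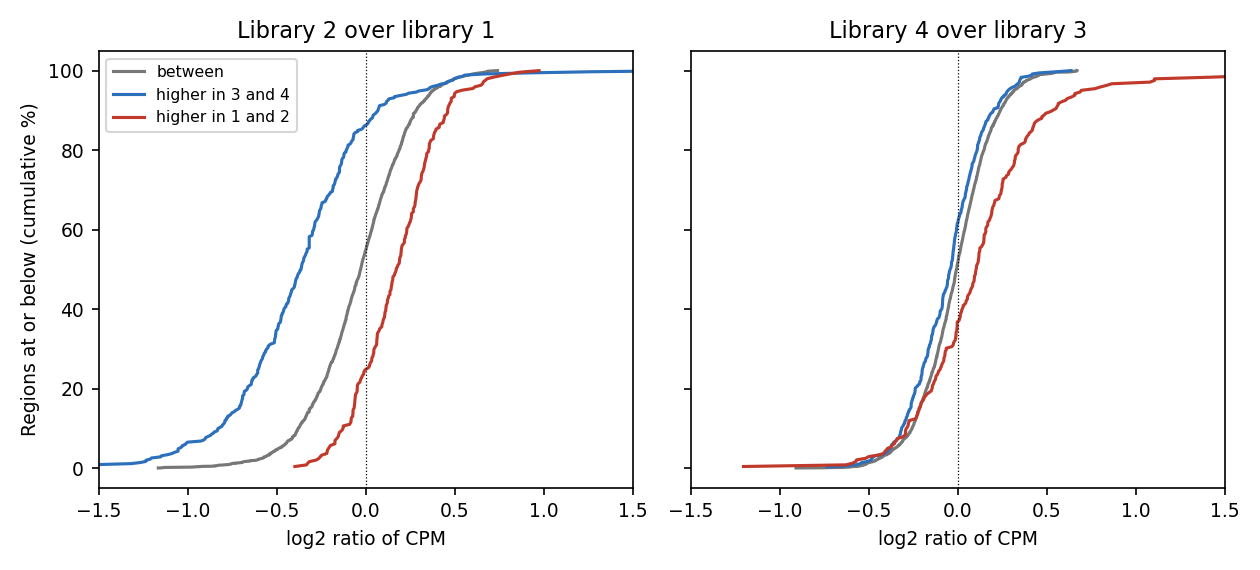
Cumulative share of regions (percent) by the log2 ratio of CPM within a pair, library 2 over library 1 (left) and library 4 over library 3 (right), for the 245 regions higher in libraries 1 and 2, the 354 higher in libraries 3 and 4 and the 2288 between. Regions with 0 reads in a library of the pair are not drawn. The red curve is shifted to the right in both panels, with medians of 0.17 and 0.10.

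Differences of at least 1.5-fold inside a pair were found between libraries 1 and 2 in 12 of the 245 regions (4.90%) and between libraries 3 and 4 in 25 (10.2%). Those shares were 3.45% and 0.787% in the regions between the limits, and 28.5% and 0.847% in those higher in libraries 3 and 4. Over all eligible regions they were 6.65% and 1.59%. Of the 25, 14 had a ratio of 4 or more, a class with a median of 5.17 CPM in libraries 3 and 4. Among the 126 regions with a ratio under 2, libraries 3 and 4 differed so in 4. The rule favours low levels in libraries 3 and 4, so the share of 10.2% is set in part by it. The largest differences between libraries 1 and 2 were at chr6:43489207-43489264 (plus strand), with 14.6 and 28.7 CPM, and at chr22:51205917-51205956 (minus strand), with 15.7 and 28.7 CPM. At the former, libraries 3 and 4 gave 7.88 and 11.8 CPM, and the ratio without library 2 was 1.48. At chr10:113223054-113223066 (plus strand) libraries 3 and 4 held 9 and 22 reads, while libraries 1 and 2 gave 26.9 and 25.9 CPM. The ratio there was 7.43, but 4.78 without library 3 and 16.7 without library 4.

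The distance to the next region downstream on the same strand was also compared. A next region over 5000 and up to 10000 bases downstream was listed for 40 of the 245 (16.3%), against 7.30% of the regions between the limits and 7.06% of those higher in libraries 3 and 4. Put the other way, 40 of 232 eligible regions at that distance were members (17.2%, Wilson interval 12.9% to 22.6%). At over 100000 bases 105 of 1379 were members (7.61%, 6.33% to 9.13%). Upstream the shares were closer, with 28 of 258 members (10.9%, 7.62% to 15.2%) at over 5000 and up to 10000 bases and 112 of 1197 (9.36%, 7.83% to 11.1%) beyond 100000. Of the 18 members wider than 60 bases, the median distance downstream was 13460 bases, against 62578.5 for those of 16 to 60 bases.

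**Figure D5:**
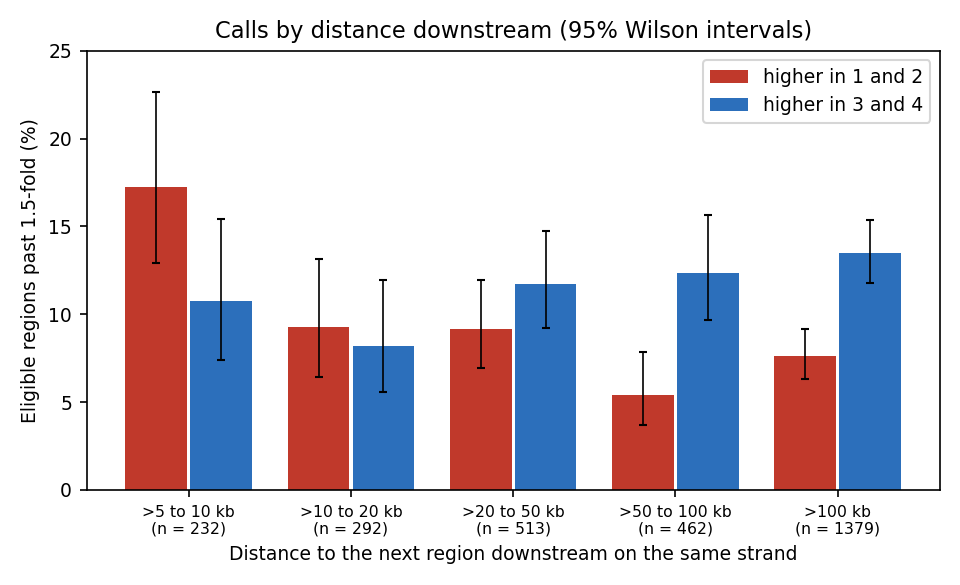
Share of eligible regions that passed 1.5-fold in either direction, by the distance to the next region downstream on the same strand. Bars are shares in percent with 95% Wilson intervals, and regions with none listed downstream are left out. The share higher in libraries 1 and 2 is 17.2% in the nearest class and 5.41% to 9.25% in the others.

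The levels of these neighbours were not used by the rule. Within 20000 bases downstream, 50 of the 245 regions had a neighbour wider than 10 bases with at least 50 reads. Its ratio had a median of 0.864, and 8 of the 50 neighbours (16%, 8.34% to 28.5%) themselves had a ratio of 1.5 or more. Downstream of the regions between the limits the median was 1.04, and 15.4% of 306 neighbours had such a ratio. For the regions higher in libraries 3 and 4 the median was 0.931 over 40 neighbours, and 15% had such a ratio. A low median downstream was thus not particular to the members. With at least 200 reads in the neighbour the medians were 0.866 over 31, 1.01 over 194 and 0.902 over 20 neighbours in the same order. The share of neighbours with a ratio of 1.5 or more was thus near that of the regions between the limits.

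The 5 pairs with the best-read downstream neighbour were picked out after their values were seen. Without an annotation, whether both regions of a pair belong to the same gene was not tested. The shares below therefore describe neighbouring regions and not the use of alternative ends of a transcript. The minus-strand region chr15:72500962-72501026 had 268, 119, 83 and 55 reads, a ratio of 3.76. The next region, 9544 bases downstream (chr15:72491362-72491418), had 689, 682, 1385 and 1102 CPM and a ratio of 0.55. The upstream region took 6.94%, 7.47%, 1.04% and 1.24% of the reads of both in libraries 1 to 4. The upstream region was higher and the downstream region lower in libraries 1 and 2.

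The minus-strand region chr19:2328550-2328569 had a ratio of 7.84, while its neighbour 7009 bases downstream gave 323, 275, 315 and 339 CPM. The upstream region took 8.58%, 11.2%, 1.26% and 1.24% of the reads of both in libraries 1 to 4. The downstream region was nearly level across the libraries. Another pair began with the plus-strand region chr11:63724787-63724805 at a ratio of 1.57, and its neighbour, 19167 bases downstream, had one of 0.78. In the next pair, the ratio was 1.94 at chr10:121341966-121341999 (minus strand) and 1.33 at the neighbour 7022 bases downstream.

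The fifth pair began at chr11:64084193-64084220 (plus strand). Its neighbour 5038 bases downstream (chr11:64089258-64089299) had 427, 446, 231 and 238 CPM, and its ratio of 1.86 was as high as that of the member, 1.72. The share of the member was 23.0%, 24.1%, 27.1% and 22.8% in libraries 1 to 4. Here both regions were higher in libraries 1 and 2, and the division of reads between them hardly differed.

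Upstream neighbours were read in the same way. Within 20000 bases upstream, 44 members had a neighbour wider than 10 bases with at least 50 reads, and 14 of these (31.8%, 20.0% to 46.6%) had a ratio of 1.5 or more. Upstream of the regions between the limits it was 52 of 337 (15.4%, 11.97% to 19.7%), and upstream of those higher in libraries 3 and 4 it was 7 of 48 (14.6%, 7.25% to 27.2%). The neighbours differed in depth, with medians of 147, 298 and 176.5 reads in the same order. Among upstream neighbours with at least 200 reads, 2 of 21 had such a ratio for the members (9.52%, 2.65% to 28.9%) and 15 of 196 for the regions between the limits (7.65%, 4.69% to 12.2%). The larger share for the members therefore lay with weakly read neighbours. Of the 14 upstream neighbours with a high ratio, 2 were members of the set. The minus-strand region chr10:33209164-33209239 (ratio 2.54) had a neighbour 9626 bases upstream with a ratio of 35.0 on 132 reads. For chr14:31612742-31612766, the neighbour 13275 bases upstream had a ratio of 2.68 on 91 reads.

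The opposite strand was examined as well. Within 20000 bases, 75 members had an opposite-strand neighbour wider than 10 bases with at least 50 reads, and 7 of these (9.33%, 4.59% to 18.0%) had a ratio of 1.5 or more. It was 9.17% (7.33% to 11.4%) for the regions between the limits and 13.8% (8.67% to 21.2%) for those higher in libraries 3 and 4. With at least 200 reads in the neighbour it was 5 of 45 for the members (11.1%, 4.84% to 23.5%). For the regions between the limits it was then 25 of 504 (4.96%, 3.38% to 7.22%), and for those higher in libraries 3 and 4 it was 9 of 80 (11.25%, 6.03% to 20.0%). An overlap with a region of the other strand was found for 9 members (3.67%), against 2.19% of the regions between the limits. On chromosome 9 both overlapping regions were members: chr9:140063192-140063218 on the plus strand had a ratio of 1.55, and chr9:140063197-140063223 on the minus strand one of 1.54. A further member lay 6006 bases upstream of the latter on the minus strand (chr9:140069229-140069260), with a ratio of 1.82.

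The members lay on all 23 chromosomes that had eligible regions. Of all pairs of members, 12 lay within 100000 bases of each other, and these involved 21 regions. Such pairs were not counted among the other eligible regions, so whether the members lie closer together than those was not tested. The plus-strand regions chr19:3462912-3462933 and chr19:3469192-3469222 had ratios of 1.78 and 1.71. The plus strand held 127 members and the minus strand 118, which are 8.60% and 8.36% of the eligible regions of each. By chromosome, the share was highest on chromosome 4 with 13 of 70 (18.6%, 11.2% to 29.2%) and lowest on chromosome 13 with 1 of 53 (1.89%, 0.334% to 9.94%). On chromosome 4, the highest ratio was 14.6, at chr4:187080065-187080088 (plus strand), with 388, 165, 23 and 25 reads. These extremes were taken from 23 chromosomes after their values were seen.

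The share of members declined with the number of reads. It was 157 of 1372 (11.4%) at 200 to under 500 reads, 59 of 913 (6.46%) at 500 to under 1000 and 29 of 602 (4.82%) at 1000 to under 2000. The share higher in libraries 3 and 4 went from 13.6% to 11.1% over the same classes. Regions with a same-strand neighbour within 5000 bases, of the same width and read limits, had a ratio of 1.5 or more in 536 of 5876 (9.12%). Isolation alone therefore came with a share near that of the other regions.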

How the data were processed

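Poly(A) site sequencing of 4 libraries in 1 group was analysed. The authors deposited a table of unnormalized read counts, with a row for each poly(A) region and its position and a column for each library, per the file headers. Bowtie2 2.2.5 and the build hg19 are named in the submitters' processing notes. No source used here states how reads became regions or whether duplicates were removed. Every region in the table has at least 11 reads in its highest library.

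The width of a region is its end minus its start plus 1, and distances as the difference between the facing ends of neighbouring regions. CPM is the count over the column total of all regions. The members and all classes were chosen with earlier results of these data known. No test was made, since the labels give a single group and the pairs of libraries come from the counts. Shares have 95% Wilson intervals and pooled ratios exact 95% binomial intervals. The rule was tested on simulated data. Scaling factors came from edgeR 4.0.16 (TMM) and DESeq2 1.42.0, and other values from Python 3.11.15 with pandas 2.3.3 and scipy 1.17.1. Alternatives covered scaling, read range, fold, isolation distance, width, depth and each library left out.

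Named regions were the 10 with the highest ratio, the 10 with the most reads, 5 each just inside and outside the limit, the 5 widest, the 5 with the widest separation of the pairs and the 3 with the largest difference within each pair. Others named were chosen after their values were seen. Planned gene lists, gene parts, poly(A) signals and A-rich flanks needed an hg19 annotation or genome and were not analysed here.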

Additional observations from a re-analysis of the deposited data

How the results depend on the processing

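No paired analysis was possible because the libraries form a single group. The 245 regions became 189 with TMM scaling (against 457 in the opposite direction, where column totals gave 354) and 199 with DESeq2 size factors (against 432). TMM lowered every ratio by about 0.11 on the log2 scale (-0.11), so that the median ratio of eligible regions was 0.910 in place of 0.980. Totals over regions wider than 10 bases gave 271 (against 327). With no read range 1901 of 8545 regions passed, against 1284 in the opposite direction. With at least 50 reads in every library it was 130 of 1750, against 108. A limit of 2-fold left 119, with a median width of 26 bases, against 135. Which direction held more regions therefore depended on the read limits, which do not treat both directions alike. A limit of 50 reads asks for a higher level in library 2, where 1 read is 0.462 CPM, than in library 3 (0.175 CPM). The median level in library 2 was 14.8 CPM in the regions higher in libraries 3 and 4 and 37.0 CPM in the 245. The counts of 130 and 108 are thus set in part by this limit. The numbers of regions tested differ by construction. Leaving out a library gave 216 to 325 regions, a median ratio of 1.81 to 2.11 and a median width of 28 to 30 bases. The highest count came without library 1. Other isolation distances gave 319 and 183, and thinning to the smallest library 277. Keeping only regions wider than 15 or 20 bases, added after seeing the data, gave 217 and 187. Pooling the reads of a pair, also added, gave 227. For 34 named regions, 41 of 269 ratios under alternatives fell below 1.5, with a lowest of 1.35. Leaving out a library could not bring a ratio below 1, since libraries 1 and 2 both exceeded libraries 3 and 4 in every member. Ratios that rest on fewer than 20 reads in libraries 3 and 4, as in 7 of the 245 regions, are limited by depth. Other definitions of poly(A) signals and A-rich flanks were not run. The minimum of 200 reads in a neighbour was added after seeing the data.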
